A study of Mus musculus with 12 samples.

Results

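Hepatocytes take up glucose through the transporter encoded by Slc2a2 (GLUT2) and control its trapping with the nuclear regulatory protein encoded by Gckr. They phosphorylate fructose with ketohexokinase (Khk), and the glyceraldehyde later released from it with triokinase (Tkfc). The 8 genes examined here were Slc2a2, Gckr, Khk, Tkfc, Pklr (the liver and red cell pyruvate kinase), Mlxipl (the transcription factor ChREBP), Txnip (the thioredoxin-interacting protein, an arrestin-like inhibitor of glucose uptake) and Gcgr (the glucagon receptor). They were found by their symbols and make up 8 of the 22471 features in each deposited table. They were selected on differences already measured between these libraries, so their changes are given with a standard error (SE) and no p-value, as a description. The other genes of the pathway, 111 in 7 lists, were read from the same fits and are given with their adjusted p-values. These lists too were drawn up with earlier results of these data known. Their counts and medians are therefore a description, and the p-values do not allow for the choice.

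The study asked what benzbromarone (BBR), a uric acid-lowering drug that blocks the urate transporter URAT1, does to gene expression in hepatocytes with and without a fatty acid load. The cells were primary hepatocytes from male C57BL/6J mice, 6 weeks old and with no engineered allele named. The labels name the tissue as liver. Control cells (Con) received neither agent. OA cells received 0.2 mM oleic acid carried on bovine serum albumin, BBR cells received 15 µM BBR, and BBR+OA cells received both, each for 16 h. Whether the control medium held the albumin carrier or the drug's solvent was not stated in the sources used here. Each group had 3 libraries numbered 1 to 3, and whether these came from separate mice or from wells of 1 preparation was not stated, so the spread below may be partly technical. Cultured hepatocytes lose some of their liver-specific expression, which limits them as a model of the organ.

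As background, ChREBP is a sugar-responsive factor: with its partner Mlx it binds carbohydrate response elements and raises Pklr, Txnip, Arrdc4 and genes of fatty acid synthesis when glucose or fructose is metabolized. Pyruvate kinase makes the last product of glycolysis, and glucagon, acting through its receptor, turns the liver from glycolysis toward glucose output. In fructolysis, ketohexokinase makes fructose 1-phosphate, which is cleaved, and triokinase phosphorylates the glyceraldehyde released.

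The promoters of the 4 genes that were lower by more than 2-fold with BBR, and those of the pyruvate kinase and ChREBP starts with an element of interest, are shown first. Each is the stretch of 250 bases before a RefSeq transcription start (GRCm38.p6), 5′ to 3′ on the gene's strand, and capitals mark matches, on either strand, to the motifs named after the sequences. The stretches are Slc2a2 at chr3:28697653-28697902 (plus strand), Gckr at chr5:31297313-31297562 (plus), Tkfc at chr19:10604259-10604508 (minus), Gcgr at chr11:120530477-120530726 (plus), the downstream Pklr start at chr3:89136373-89136622 (plus) and the upstream Mlxipl start at chr5:135089640-135089889 (plus).
Slc2a2: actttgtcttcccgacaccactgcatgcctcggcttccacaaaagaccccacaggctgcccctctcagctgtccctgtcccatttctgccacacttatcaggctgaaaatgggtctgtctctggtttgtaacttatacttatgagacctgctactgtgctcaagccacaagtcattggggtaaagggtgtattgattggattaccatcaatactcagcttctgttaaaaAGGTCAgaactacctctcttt
Gckr: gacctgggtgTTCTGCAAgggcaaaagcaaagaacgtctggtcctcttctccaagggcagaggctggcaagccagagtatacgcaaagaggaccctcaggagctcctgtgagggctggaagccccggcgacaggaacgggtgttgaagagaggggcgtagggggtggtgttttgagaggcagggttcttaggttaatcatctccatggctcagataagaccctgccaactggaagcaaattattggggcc
Tkfc: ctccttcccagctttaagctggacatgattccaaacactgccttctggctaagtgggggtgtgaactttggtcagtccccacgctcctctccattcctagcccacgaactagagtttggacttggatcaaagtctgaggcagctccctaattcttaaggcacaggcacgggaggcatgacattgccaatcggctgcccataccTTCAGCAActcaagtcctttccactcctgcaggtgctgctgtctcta
Gcgr: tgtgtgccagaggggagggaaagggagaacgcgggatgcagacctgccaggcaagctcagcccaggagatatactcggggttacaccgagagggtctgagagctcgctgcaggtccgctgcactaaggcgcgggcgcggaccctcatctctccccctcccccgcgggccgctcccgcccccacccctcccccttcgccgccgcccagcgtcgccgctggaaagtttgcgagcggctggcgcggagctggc
Pklr, downstream start: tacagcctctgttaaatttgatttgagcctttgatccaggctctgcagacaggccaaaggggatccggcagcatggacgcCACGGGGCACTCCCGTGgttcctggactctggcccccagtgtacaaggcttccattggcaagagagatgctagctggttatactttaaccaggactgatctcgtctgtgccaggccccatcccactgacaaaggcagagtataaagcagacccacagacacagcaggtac
Mlxipl, upstream start: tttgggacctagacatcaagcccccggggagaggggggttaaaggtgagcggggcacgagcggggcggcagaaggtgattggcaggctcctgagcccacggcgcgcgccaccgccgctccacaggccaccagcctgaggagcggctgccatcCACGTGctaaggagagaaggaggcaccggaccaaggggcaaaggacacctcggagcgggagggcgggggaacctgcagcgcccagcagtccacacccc

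The motifs reported, among those searched, were CACGTG (the E-box), AGGTCA (bound by nuclear receptors), TTGCNNAA (bound by C/EBP factors) and the carbohydrate response element (ChoRE). The ChoRE is a pair of E-box-like sites 5 bases apart, and it was searched in 1 form only, with the sites in opposite orientation. The search covered windows of 300 bases, 50 of them past the start, and no match to these overlapped another. The 8 genes have 10 such windows, because RefSeq gives 2 starts each for Pklr, 481 bases apart, and for Mlxipl, 17001 bases apart. In this form the ChoRE was found at 1 of the 10 windows, the downstream start of Pklr, beginning 170 bases before it. It was found at 39 of 32851 promoters in all (0.119%). The ChoRE search was added after matches to the other motifs had been seen. Pklr is named above among the genes raised through this element, so its match carries no evidence, whatever the share of promoters. Slc2a2 held AGGTCA beginning 21 bases before its start, a letter string present in 16.3% of promoters. Gckr held a C/EBP string on the opposite strand, beginning 240 bases before the start, and Tkfc held a C/EBP string on the opposite strand 47 bases before its start. TTGCNNAA occurs in 10.8% of promoters. The E-box (7.15% of promoters) was found at Khk, 71 bases before the start, and at the upstream start of Mlxipl, 98 bases before it. The upstream start of Pklr held AGGTCA on the opposite strand, 151 bases before it. The windows of Gcgr and Txnip and the downstream start of Mlxipl held no match to these motifs in the forms searched. The Txnip window did hold cacgag and, 5 bases after it, cacgag again. These sites have the same orientation, so the ChoRE search did not count them, and its result does not show that Txnip lacks the element. The files give 1 value per gene, so the 2 starts of Pklr or of Mlxipl cannot be told apart, and a match is a description of the letters only.

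Values below are counts scaled to library size (CPM) after TMM normalization, with the mean ± SD over 3 libraries per group. Library totals ranged from 15485508 to 23668379 counts, and 1 count was worth between 0.0423 and 0.0646 CPM. The lowest count of any of the 8 genes in a library was 48 (Gckr in BBR replicate 2), well above the limit of 3 counts that a count of 0 allows. A gene was called where its adjusted p from edgeR was under 0.05 over all genes tested. The deposited tables hold bulk RNA, in which fewer cells of a type and less RNA per cell cannot be told apart. Summed CPM of 10 hepatocyte markers, of which Alb carried most, lay at 45230 to 46390 in Con and 43800 to 45470 with BBR. It was higher with OA (49320 to 51300) and BBR+OA (51320 to 53360). For OA against control, 6 of the 10 were called higher and 3 lower, where 21.3% of all genes were higher and 21.5% lower. Cps1 rose with OA from 17.9 to 177.3 CPM (log2 3.32, SE 0.085, adjusted p = 2.37e-12). From BBR to BBR+OA it rose from 9.71 to 192.7 CPM (4.29, SE 0.097, adjusted p = 1.12e-12). Summed markers of endothelial cells lay between 33.4 and 43.0 and those of stellate cells between 8.83 and 11.7. Single endothelial markers did differ. Pecam1 (log2 0.39, SE 0.090, adjusted p = 0.0039) and Kdr (0.50, SE 0.13, adjusted p = 0.0088) were called higher with BBR, and the 3 others were not called. From BBR to BBR+OA, Stab2 and Lyve1 were called higher and Pecam1 and Kdr lower. The 8 Kupffer cell markers summed to 122.6 to 166.5 with BBR alone and to 84.5 to 105.9 in the other 3 groups, and Cd68 carried most of each sum. With BBR, Cd68, a general macrophage lysosome marker, rose from 80.1 to 131.4 CPM (log2 0.71, SE 0.11, adjusted p = 9.05e-05). Cd5l fell from 5.98 to 3.71 CPM (-0.68, SE 0.17, adjusted p = 0.0081), and the 5 other tested markers did not pass the test. For OA against control, 2 of the 7 tested markers were called higher and 4 lower, while Cd68 was not called (-0.03, SE 0.11). Marco (log2 2.51, SE 0.19) and Adgre1 (1.41, SE 0.19) were higher. Clec4f (-1.28), Vsig4 (-1.17), Cd5l (-1.05) and C1qa (-0.67) were lower. The 5 cholangiocyte markers summed to 590.0 to 722.5 in Con, 391.0 to 421.6 with BBR, 242.2 to 272.2 with OA and 198.7 to 240.2 with BBR+OA. Krt7 was at 0 in the control libraries, and Spp1, which is not particular to cholangiocytes, carried most of the sum, at 613.4 CPM in control and 343.2 with BBR. The other 3 tested markers rose with BBR: Krt19 from 6.91 to 11.2 CPM, Epcam from 1.86 to 3.53 CPM and Sox9 from 32.3 to 48.9 CPM. The part of these cells in the results was not tested.

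**Figure D1:**
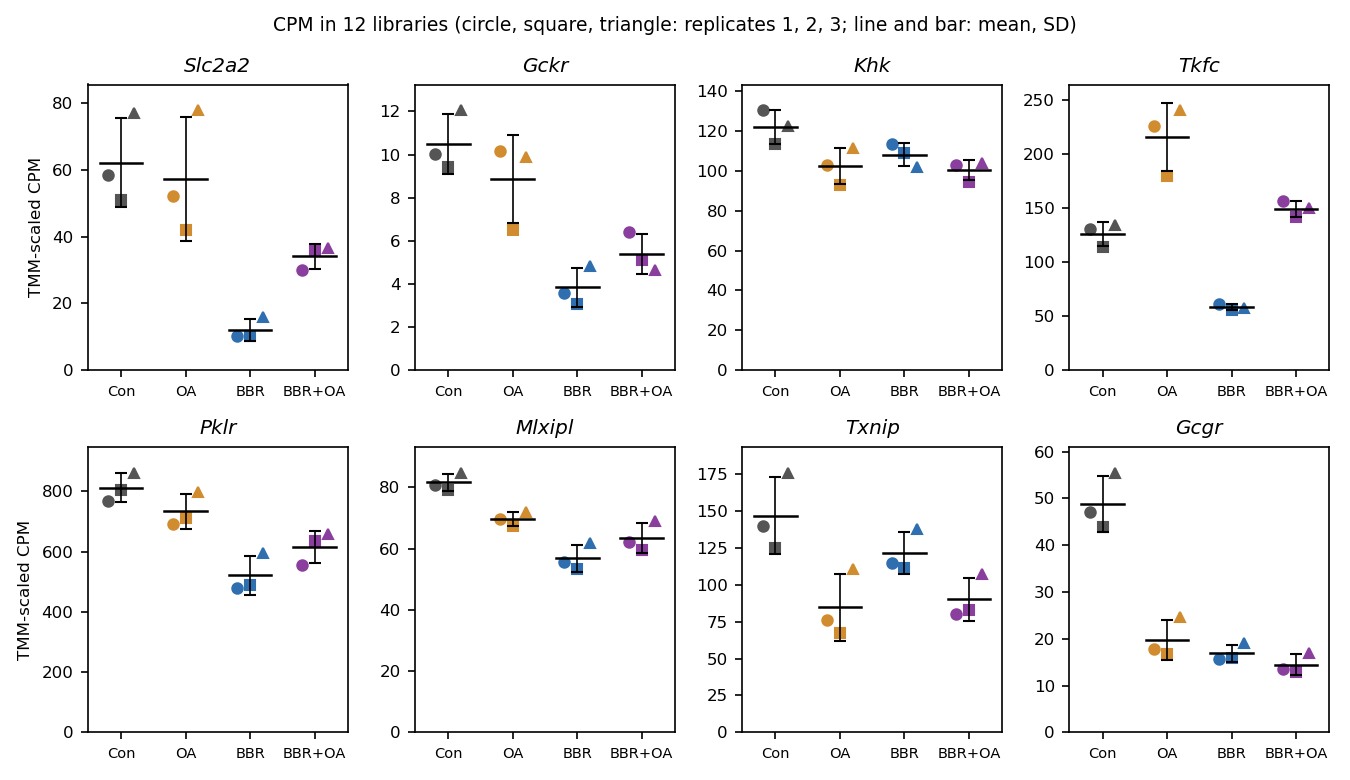
TMM-scaled CPM (y axis, from 0) of the 8 genes in each of the 12 libraries, by group (x axis); symbols are replicates 1, 2 and 3, the line is the mean and the bar the SD. Slc2a2, Gckr, Tkfc and Gcgr lie below control in all 3 BBR libraries, Tkfc is highest with OA (179.9 to 240.3 CPM), and Khk overlaps between neighbouring groups throughout.

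Slc2a2 showed the largest fold difference of the 8 genes between control and BBR. It stood at 58.6, 51.0 and 77.0 CPM in control replicates 1, 2 and 3 (mean 62.2 ± 13.4), and at 52.2, 41.9 and 77.9 CPM with OA (57.3 ± 18.5). It stood at 10.4, 10.1 and 15.9 CPM with BBR (12.1 ± 3.29), and at 29.9, 36.0 and 36.6 CPM with BBR+OA (34.2 ± 3.73). Control and OA overlapped, BBR+OA lay below both, and BBR lay below all other libraries. The BBR level was 5.11-fold lower than control (log2 fold change -2.35, SE 0.15). With OA present the drug difference was -0.75 (SE 0.16), or -0.46 without OA replicate 3. Its call was lost with DESeq2 and without BBR+OA replicate 1, 2 or 3, one at a time. OA added to BBR went with a level 2.81-fold higher than BBR alone (log2 1.49, SE 0.13). OA alone differed from control by -0.11 (SE 0.18), a value that reached -0.40 and was called when OA replicate 3, the highest OA library, was left out.

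Gckr encodes a nuclear inhibitor that fructose 6-phosphate strengthens and fructose 1-phosphate weakens. Its libraries were at 10.04, 9.40 and 12.05 CPM in control (10.5 ± 1.38) and at 3.59, 3.09 and 4.84 CPM with BBR (3.84 ± 0.903). With OA they were at 10.2, 6.50 and 9.91 CPM (8.86 ± 2.06), and with BBR+OA at 6.43, 5.13 and 4.65 CPM (5.40 ± 0.921). Neither group with the drug overlapped a group without it, while BBR and BBR+OA overlapped each other. The drug difference was -1.44 (SE 0.15) without OA and -0.71 (SE 0.17) with it. OA differed from control by -0.24 (SE 0.15), and BBR+OA from BBR by 0.49 (SE 0.18), or 0.34 without BBR+OA replicate 1.

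Khk, which makes fructose 1-phosphate, differed least of the 8 genes in the BBR comparison without OA. Control libraries held 130.3, 113.2 and 122.4 CPM (122.0 ± 8.54) and BBR libraries 113.3, 109.0 and 102.1 CPM (108.2 ± 5.64). OA libraries held 102.7, 93.1 and 111.4 CPM (102.4 ± 9.15) and BBR+OA libraries 102.8, 94.4 and 104.0 CPM (100.4 ± 5.26). Every group overlapped the next in the order of means, by the narrow margin of 113.2 against 113.3 CPM between control and BBR. The differences were -0.17 (SE 0.057) for BBR, -0.03 (SE 0.064) for BBR on top of OA, -0.24 (SE 0.068) for OA and -0.11 (SE 0.052) for OA on top of BBR. The BBR call was lost with DESeq2, with all 12 libraries in 1 fit, and without BBR replicate 2 or 3 or control replicate 1 or 3, and the OA call without OA replicate 2 or control replicate 1.

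Tkfc, which handles the glyceraldehyde arm of fructolysis, moved in opposite directions with the 2 agents. It was at 130.5, 113.8 and 134.0 CPM in control (126.1 ± 10.8), and at 226.1, 179.9 and 240.3 CPM with OA (215.4 ± 31.6). It was at 60.9, 55.6 and 58.0 CPM with BBR (58.2 ± 2.63), and at 156.3, 141.7 and 150.2 CPM with BBR+OA (149.4 ± 7.31). None of the 4 groups overlapped another, and the order from high to low was OA, BBR+OA, control and BBR. BBR lowered the mean 2.15-fold without OA (log2 -1.11, SE 0.062) and 1.45-fold with OA (-0.53, SE 0.083). OA went with a 1.72-fold higher level without BBR (0.78, SE 0.090) and a 2.56-fold higher level with it (1.36, SE 0.051). Tkfc (chr19:10587791-10605654, minus strand) shares 328 of its exon bases (7.1%) with Ddb1 and 596 (12.9%) with Cyb561a3, both on the opposite strand, and strand use in the counting was not stated, so its level is uncertain. Ddb1 stood at 749.4 CPM in control and differed by -0.17 with BBR and by -0.05 with OA, and Cyb561a3 stood at 20.7 CPM and differed by -0.10 and -0.04.

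Pklr, per length, had the highest level of the 8 genes on the deposited FPKM. Its libraries held 766.8, 806.2 and 862.1 CPM in control (811.7 ± 47.9) and 479.7, 489.4 and 595.4 CPM with BBR (521.5 ± 64.2). They held 690.7, 711.8 and 798.3 CPM with OA (733.6 ± 57.0) and 555.1, 634.4 and 657.3 CPM with BBR+OA (615.6 ± 53.6). The groups with the drug lay below the groups without it, and within each of these pairs the libraries overlapped. The drug difference was -0.63 (SE 0.071) without OA and -0.26 (SE 0.066) with it. OA differed from control by -0.14 (SE 0.063), called without OA replicate 3, and BBR+OA from BBR by 0.24 (SE 0.076). The deposited counts of Pklr were not whole numbers, and Hcn3, on the opposite strand and at 11.8 CPM in control, covers 711 of its exon bases (22.0%).

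Mlxipl, the sensor itself, was at 80.8, 79.2 and 84.7 CPM in control (81.6 ± 2.87) and at 55.6, 53.3 and 61.8 CPM with BBR (56.9 ± 4.41). It was at 69.8, 67.4 and 72.0 CPM with OA (69.8 ± 2.29) and at 62.0, 59.5 and 68.9 CPM with BBR+OA (63.5 ± 4.88). Control lay above the other 3 groups, BBR and OA were apart from each other, and BBR+OA overlapped both. The differences were -0.51 (SE 0.057) for BBR, -0.14 (SE 0.060) for BBR on top of OA, -0.22 (SE 0.052) for OA and 0.15 (SE 0.065) for OA on top of BBR.

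Txnip followed OA more than BBR. It was at 139.9, 124.7 and 175.8 CPM in control (146.8 ± 26.2) and at 76.4, 67.6 and 110.5 CPM with OA (84.8 ± 22.7). It was at 114.7, 111.6 and 137.7 CPM with BBR (121.3 ± 14.2) and at 80.5, 83.0 and 107.0 CPM with BBR+OA (90.2 ± 14.7). Control and BBR overlapped, and both lay above the 2 groups with OA, which also overlapped. OA differed from control by -0.78 (SE 0.15), and BBR+OA from BBR by -0.43 (SE 0.095). The drug differences were -0.27 (SE 0.098) without OA and 0.08 (SE 0.14) with it, and the first was no longer called with RLE or upper quartile scaling, with DESeq2, with all 12 libraries in 1 fit, or without BBR replicate 1 or 2 or control replicate 1 or 3. Without control replicate 3 the value was -0.12.

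Gcgr was lower with either agent. Control libraries were at 47.0, 43.8 and 55.5 CPM (48.8 ± 6.04) and OA libraries at 17.7, 16.7 and 24.6 CPM (19.7 ± 4.29). BBR libraries were at 15.7, 15.8 and 19.1 CPM (16.9 ± 1.90) and BBR+OA libraries at 13.5, 13.0 and 17.0 CPM (14.5 ± 2.17). Control lay above all other libraries, and the other 3 groups overlapped one another. The level was 2.88-fold lower with BBR (log2 -1.53, SE 0.093) and 2.46-fold lower with OA (-1.30, SE 0.12). Each agent on top of the other made a smaller difference, -0.45 (SE 0.14) for BBR and -0.23 (SE 0.11) for OA.

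**Figure D2:**
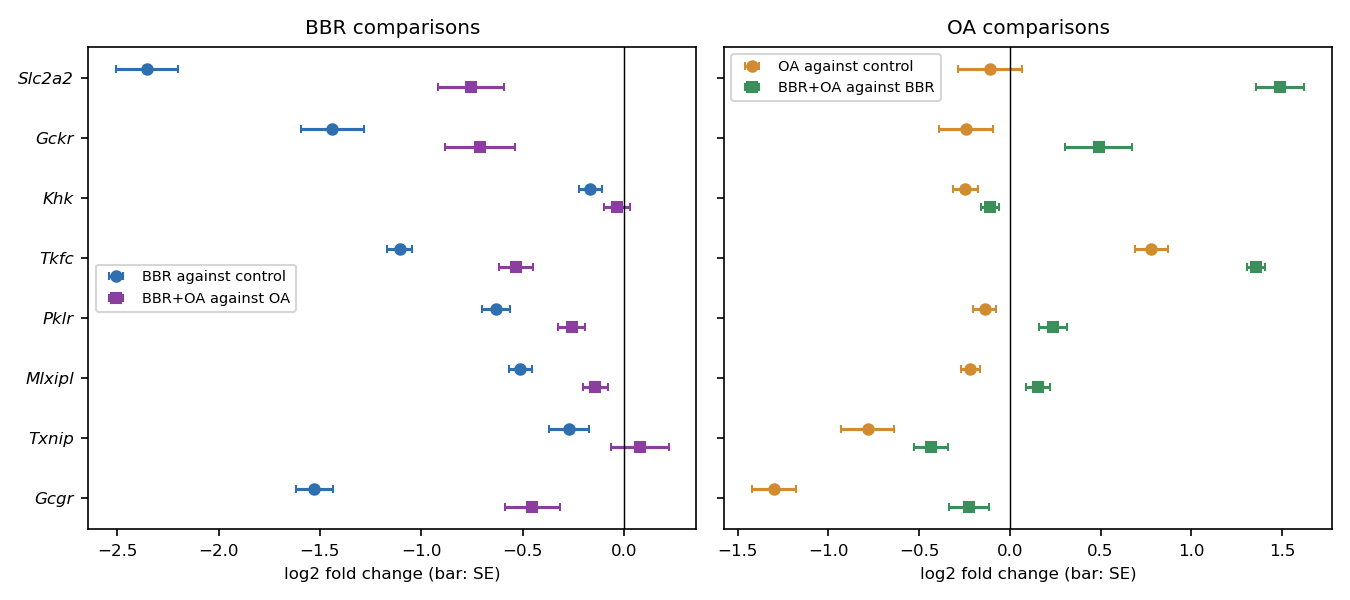
log2 fold change (x axis, with its SE as a bar) of the 8 genes in the BBR comparisons (left) and in the OA comparisons (right). The BBR differences lie nearer to 0 with OA than without it for all 8 genes, from -2.35 to -0.75 for Slc2a2. In the OA comparisons Tkfc lies above 0 in both (0.78 and 1.36), and Slc2a2 lies above 0 where BBR is present (1.49).

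For BBR against control, all 8 genes were called lower, where 14.5% of 12555 genes tested were called lower, 13.2% higher and 27.7% either way. For BBR+OA against OA, 4 were called lower (Slc2a2, Gckr, Pklr and Tkfc), where the shares over 12278 genes were 2.63% lower, 1.95% higher and 4.59% either way. That count was 2 without BBR+OA replicate 1 or OA replicate 3, 1 without BBR+OA replicate 2 or 3, and 3 without OA replicate 1 or 2, and Tkfc was called under each. For OA against control, Tkfc was called higher and Khk, Mlxipl, Txnip and Gcgr lower, where 21.3% of 12418 genes were higher, 21.5% lower and 42.8% either way. For BBR+OA against BBR, Slc2a2, Gckr, Pklr and Tkfc were called higher and Txnip lower, where 20.1% of 12416 genes were higher, 18.8% lower and 38.9% either way. Of these, the Gckr call was lost without BBR replicate 1 or 2 or BBR+OA replicate 1 or 2, and the Pklr call without BBR replicate 1 or 2 or BBR+OA replicate 2 or 3. Mlxipl was called higher there without BBR+OA replicate 2 or BBR replicate 3, and Gcgr lower without BBR+OA replicate 3. These counts follow from how the genes were chosen and carry no evidence. The comparisons share libraries: BBR and OA were set against the same controls, and BBR+OA against OA and BBR in turn.

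The difference between the drug effect with OA and without OA, a product term fitted on all 12 libraries, was positive for each of the 8 genes. It was 1.61 (SE 0.28) for Slc2a2, 1.08 (SE 0.19) for Gcgr, 0.74 (SE 0.26) for Gckr and 0.59 (SE 0.12) for Tkfc. It was 0.39 (SE 0.11) for Pklr, 0.38 (SE 0.086) for Mlxipl, 0.36 (SE 0.21) for Txnip and 0.14 (SE 0.092) for Khk. The term was called for Slc2a2, Gcgr, Tkfc, Pklr and Mlxipl, where 6.87% of 12742 genes had a called positive term, 5.31% a negative one and 12.2% either. The Pklr call was lost without control replicate 2 or 3, OA replicate 1 or 2, BBR replicate 1 or 2, or BBR+OA replicate 2 or 3, one library at a time. Gckr was called without OA replicate 1 or BBR replicate 3, and Txnip without OA replicate 3.

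Levels of different genes can be compared only per length, on the deposited FPKM values (fragments scaled by transcript length and depth). In control the order was Pklr (536.3 FPKM), Khk (87.9), Tkfc (56.6), Txnip (52.7), Mlxipl (33.2), Gcgr (25.2), Slc2a2 (11.3) and Gckr (5.06). Tkfc and Txnip overlapped in control, and the other neighbours did not. With OA, Tkfc at 94.7 ± 13.4 FPKM stood above Khk at 71.4 ± 5.90, without overlap. With BBR, Tkfc at 25.9 ± 1.26 FPKM overlapped Mlxipl at 25.7 ± 1.82, and Slc2a2 at 2.19 ± 0.584 overlapped Gckr at 1.84 ± 0.603.

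Several of these genes are the liver form of a step that has a widespread form. Slc2a1 (GLUT1), the widespread transporter, rose with BBR from 192.2 to 314.5 CPM (log2 0.72, SE 0.059, adjusted p = 2.58e-07) and with OA to 285.8 CPM (0.58, SE 0.068, adjusted p = 1.16e-05). The FPKM ratio of Slc2a2 to Slc2a1 was 0.188, 0.140 and 0.234 in control and 0.0204, 0.0180 and 0.0281 with BBR. It was 0.108, 0.0765 and 0.169 with OA and 0.0631, 0.0680 and 0.0721 with BBR+OA. The BBR libraries lay below all others, and BBR+OA lay below OA by a narrow margin. The widespread hexokinase Hk1 rose with BBR from 68.2 to 121.2 CPM (0.83, SE 0.093, adjusted p = 5.74e-06). Pkm, the widespread pyruvate kinase, rose with BBR from 1122 to 1371 CPM (0.30, SE 0.051, adjusted p = 0.000372), and the Pklr to Pkm ratio was 1.12 ± 0.130 in control, 0.938 ± 0.0260 with OA, 0.651 ± 0.0919 with BBR and 0.762 ± 0.0272 with BBR+OA.

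**Figure D3:**
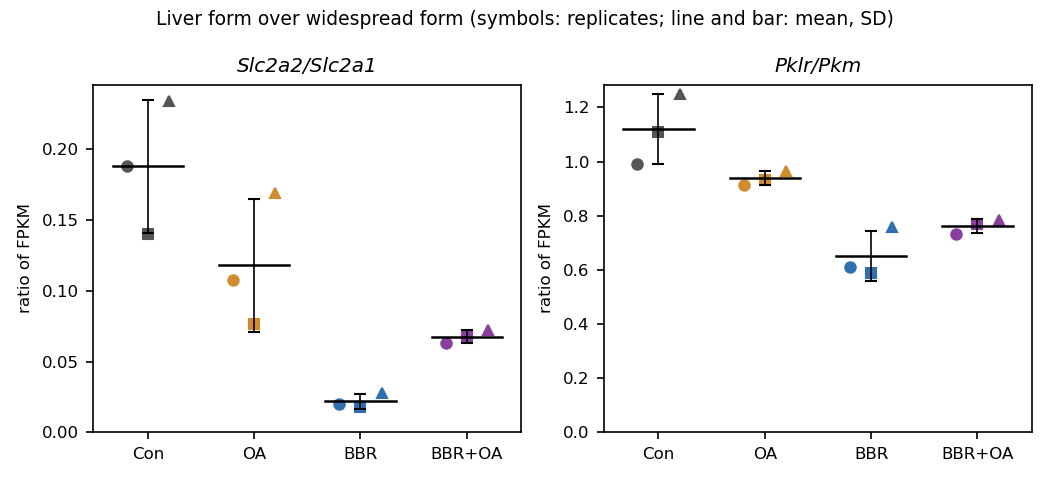
Ratio of deposited FPKM (y axis, from 0) of the liver form to the widespread form of the glucose transporter and of pyruvate kinase in each library, by group (x axis), with the mean (line) and SD (bar). The BBR mean is the lowest in each panel, 0.0221 and 0.651, against 0.188 and 1.12 in control.

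With OA present these partners of the 8 genes did not pass the test for BBR. Slc2a1 differed between BBR+OA and OA by 0.02 (SE 0.062, adjusted p = 0.893) and Pkm by 0.02 (SE 0.050, adjusted p = 0.866). The drug effect itself differed between the 2 settings: the product term was -0.69 (SE 0.095, adjusted p = 0.000121) for Slc2a1, -1.01 (SE 0.15, adjusted p = 0.000189) for Hk1 and -0.27 (SE 0.069, adjusted p = 0.0163) for Pkm. The Pkm term was not called without BBR replicate 2. OA added to BBR lowered Hk1 from 121.2 to 81.9 CPM (-0.56, SE 0.10, adjusted p = 0.000578).

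Glyctk, the glycerate kinase on a side branch of fructolysis, had the order seen for Tkfc in part: it fell with BBR from 57.9 to 48.7 CPM (-0.24, SE 0.068, adjusted p = 0.0159), not called without BBR replicate 2 or 3 or control replicate 2, and rose with OA to 73.2 CPM (0.35, SE 0.062, adjusted p = 0.000458) and from BBR to BBR+OA to 87.1 CPM (0.83, SE 0.061, adjusted p = 1.35e-07). BBR+OA was also higher than OA for Glyctk (0.25, SE 0.055, adjusted p = 0.0192), where Tkfc was lower, and this call was lost without any 1 of the 3 BBR+OA libraries or OA replicate 2. Of the 12 genes for entry of fructose, polyols, galactose and mannose, 6 fell and 2 rose with BBR, and 6 fell and 3 rose with OA. The 66.7% called with BBR stood beside 27.7% of all genes, and the 75% called with OA beside 42.8%. Sord, the sorbitol dehydrogenase that makes fructose, fell with OA (-0.55, SE 0.058, adjusted p = 3.82e-06).

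Among the 20 partners and targets of ChREBP, 11 fell and 4 rose with BBR, 75% of the list, beside 27.7% of all genes called. The median log2 fold change was -0.22 against -0.000855 over all genes tested. Mlx, the partner, did not pass the test with BBR (40.4 CPM in control, 43.3 with BBR, log2 0.10, SE 0.060, adjusted p = 0.214) and rose with OA to 51.4 CPM (0.35, SE 0.058, adjusted p = 0.000204). Arrdc4, the arrestin relative of Txnip, fell with BBR from 27.1 to 16.04 CPM (-0.76, SE 0.093, adjusted p = 1.49e-05). Txnip and Arrdc4 parted with OA: Arrdc4 stood at 30.1 CPM, 0.15 above control (SE 0.083, adjusted p = 0.150), where Txnip was 0.78 below it. The largest falls with BBR in this list were those of Rgs16, a regulator of G protein signalling (56.0 to 16.9 CPM, -1.72, SE 0.13, adjusted p = 1.12e-07), and Acaca, acetyl-CoA carboxylase (217.1 to 85.8 CPM, -1.33, SE 0.11, adjusted p = 3.61e-07). Scd1, a fatty acid desaturase, and Fasn, fatty acid synthase, rose instead (0.48, SE 0.064, adjusted p = 3.35e-05, and 0.33, SE 0.053, adjusted p = 0.00018). With OA present, 4 of the 20 fell and 2 rose with BBR, 30% of the list, beside 4.59% of all genes called.

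Of 18 glycolysis enzymes and their regulators, 11 rose and 2 fell with BBR, with a median log2 fold change of 0.27, while Pklr was lower. The 72.2% called stood beside 27.7% of all genes. Pfkp, the platelet form of phosphofructokinase, rose from 154.8 to 269.3 CPM (0.81, SE 0.053, adjusted p = 3.08e-08), and Aldoa, the widespread aldolase, from 742.1 to 995.4 CPM (0.43, SE 0.051, adjusted p = 9.91e-06). With OA alone, 8 of the 18 rose and 3 fell, 61.1% of the list, beside 42.8% of all genes called. In BBR+OA against BBR 1 rose and 6 fell, 38.9% of the list, beside 38.9% of all genes called.

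Of 19 genes of glycogen and glucose 6-phosphate turnover, 8 fell and 3 rose with BBR, 57.9% of the list, beside 27.7% of all genes called. Gys2, the liver glycogen synthase, fell from 7.21 to 3.07 CPM (-1.22, SE 0.17, adjusted p = 6.46e-05) and rose with OA on top of BBR to 7.22 CPM (1.22, SE 0.16, adjusted p = 2.76e-05). G6pc, the catalytic subunit of glucose 6-phosphatase, fell from 13.5 to 6.57 CPM (-1.03, SE 0.22, adjusted p = 0.00199), a change of -0.64 without control replicate 3. Slc37a4, the transporter that feeds it, rose from BBR to BBR+OA, 13.3 to 29.6 CPM (1.14, SE 0.10, adjusted p = 8.92e-07).

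Of 16 genes of glucagon and insulin signalling, 4 fell and 0 rose with BBR. The 25% called was near the 27.7% of all genes called either way, of which 14.5% were lower. The list's median log2 fold change was 0.029. Adcy6, an adenylyl cyclase downstream of the glucagon receptor, was 1 of the 4 (26.4 to 18.0 CPM, -0.54, SE 0.072, adjusted p = 3.37e-05). Another was Irs1, an insulin receptor substrate (5.26 to 2.63 CPM, -0.98, SE 0.17, adjusted p = 0.000373). Irs2, the other substrate, rose with OA from 16.7 to 34.1 CPM (1.04, SE 0.070, adjusted p = 4.69e-08) and from BBR to BBR+OA (1.27, SE 0.086, adjusted p = 6.05e-08), while Gcgr was lower with OA.

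Of 14 hepatocyte transcription factors, 10 fell with BBR and 4 did not pass the test. The 71.4% called stood beside 27.7% of all genes called either way, of which 14.5% were lower. Hnf4a fell from 151.4 to 125.6 CPM (-0.26, SE 0.050, adjusted p = 0.000929) and Nr1h4, the bile acid receptor FXR, from 15.5 to 7.99 CPM (-0.94, SE 0.093, adjusted p = 1.82e-06). Hnf4a, and Glyctk under BBR, were named after their values were seen. Of 10 hepatocyte markers, 6 fell and 1 rose with BBR, 70% called. The largest falls were those of Cps1 (-0.86, SE 0.12, adjusted p = 6.6e-05) and Fgb (-0.81, SE 0.063, adjusted p = 1.48e-07), and Ttr rose (0.18, SE 0.061). The summed level of the 10 markers overlapped between control (45230 to 46390 CPM) and BBR (43800 to 45470 CPM). Alb carried most of it (28120 CPM in control, 29630 with BBR), so the sum says little about the other markers. In BBR+OA against OA, edgeR called 0 of the 14 factors at the adjusted threshold, as did DESeq2, and 1 was higher and 2 lower at an unadjusted p under 0.05. With OA on top of BBR, 4 factors rose and 1 fell, 35.7% of the list, beside 38.9% of all genes called. Nr1h4 rose there by 0.43 (SE 0.10, adjusted p = 0.00514). The part of these factors in the levels of the 8 genes was not tested.

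**Figure D4:**
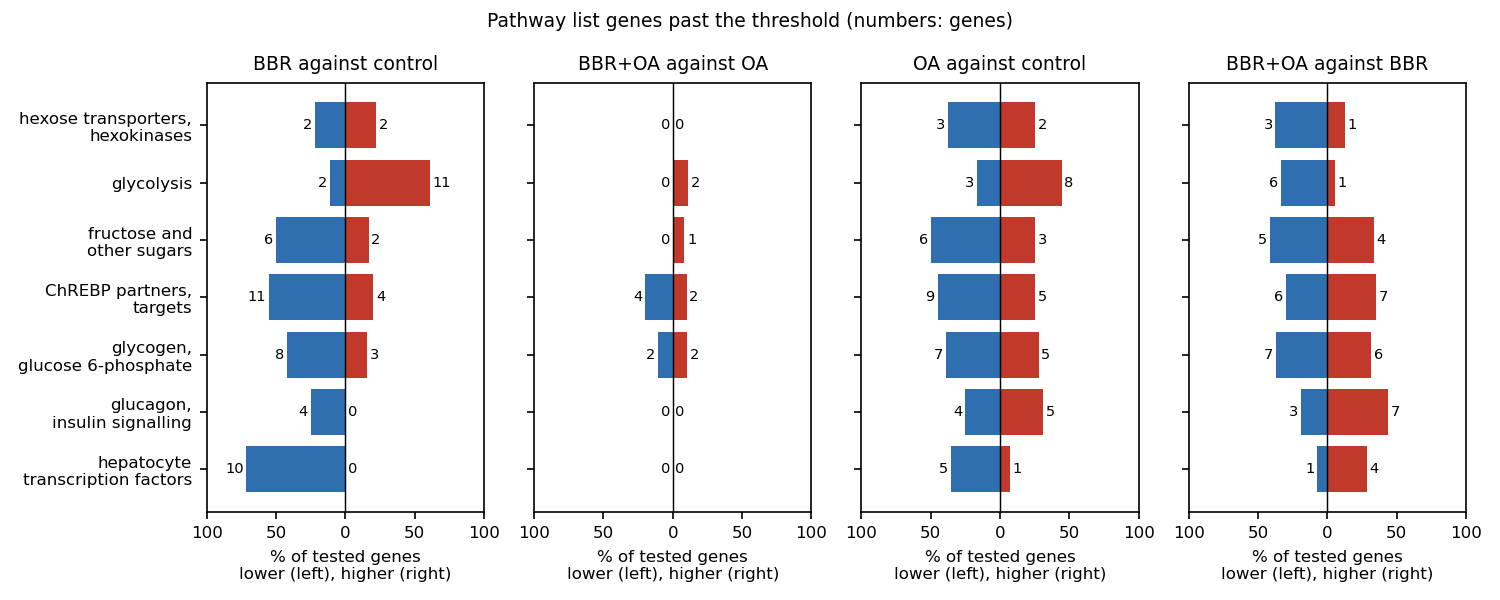
Percentage of tested genes in each pathway list (rows) called higher (red, to the right) or lower (blue, to the left) in the 4 comparisons (panels), with the number of genes beside each bar. With BBR alone the glycolysis list has 11 genes higher and the hepatocyte factors 10 lower, while in BBR+OA against OA no list has more than 4 genes in 1 direction.

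Over the 7 lists together, 43 of 108 tested genes fell and 22 rose with BBR (60.2% called, beside 27.7% of all genes). With OA, 37 of 106 fell and 29 rose (62.3%, beside 42.8%). From BBR to BBR+OA, 31 of 107 fell and 30 rose (57%, beside 38.9%). In BBR+OA against OA, 6 of 107 fell and 7 rose (12.1%, beside 4.59%). The total of 13 in that comparison was 8 without BBR+OA replicate 1, 2 without BBR+OA replicate 2, 3 without BBR+OA replicate 3, 9 without OA replicate 1, 7 without OA replicate 2 and 13 without OA replicate 3. The product term was positive and called for 24 of 107 genes and negative for 12 (33.6%, beside 12.2% of all genes). The transporters Slc2a3, Slc2a10 and Slc2a12 were too low to be tested in any comparison.

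Replicate 3 was the highest library of its group in all 4 groups for Slc2a2, Pklr, Mlxipl, Txnip and Gcgr, which holds for 397 of 12742 genes (3.12%). Gckr, Khk and Tkfc did not share this order. In pairs of the same number, BBR was lower than control in 3 of 3 for each of the 8 genes, of which 6 did not overlap between these groups. In BBR+OA against OA, 6 genes were lower in 3 of 3, while Khk and Txnip were higher in 2 and lower in 1. Where groups do not overlap, every pair must go the same way. The share over all genes was not worked out and the genes were chosen on these libraries, so these counts carry no evidence. The labels do not say what the numbers stand for.

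Genes with the most similar pattern were sought over the 4 group means of log2 CPM, each centred on its own mean, among 9716 genes with a mean of at least 5 CPM. The measure was the root mean square (RMS) difference, with 0 for the same pattern. Khk had the closest neighbours, Acly (ATP citrate lyase, RMS 0.00926) and Inf2 (0.0100). Mlxipl was nearest to Rpa2 (0.0131) and Txnip to Tmc6 (0.0189), and Pklr to Phlda3 (0.0310). Tkfc was nearest to the chemokine genes Ccl9 (0.0643) and Cxcl1 (0.112). Gcgr was nearest to Acaca (0.0818) and Akr1c14 (0.0846), and Gckr to Gclc (0.122) and Tnc (0.141). Slc2a2 was nearest to Igfbp4 (0.321) and Slc16a12 (0.359). This is a description over 4 means, and nothing about shared control follows from it.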

How the data were processed

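RNA was enriched for polyadenylated transcripts and sequenced on an Illumina instrument, per the labels, in 12 libraries of 4 groups of 3. The authors deposited, for each library, an estimated count and an FPKM value for 22471 features. Fractional counts, found for 2862 features, were rounded. The submitters' processing notes name mm10. The aligner, the counter and the use of strand are not given in the sources used here. Of 21911 Ensembl identifiers, 21848 (99.71%) were found in GENCODE M21 (GRCm38), which gave positions and overlaps. Promoters are from RefSeq (GRCm38.p6), and all 8 symbols matched.

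The 8 genes and the lists were chosen with earlier results of these data known. Each comparison was fitted on its own libraries in edgeR 4.0.16 (R 4.3.3), with filterByExpr at a minimum count of 10, TMM scaling, the two-sided quasi-likelihood F test and Benjamini-Hochberg adjustment over all genes tested, with a threshold of 0.05. The product term used all 12 libraries. SEs were derived from the F statistic. No p-value is given for the 8 genes. List genes were named by rule: up to 2 called genes per direction with the largest change per list, at 5 CPM or more in the higher group, and partners of the 8 genes, called or not. Some items are not reported here. Hnf4a and Glyctk under BBR were added after their values were seen. FPKM values deposited by the authors were used only to compare levels between genes and were not tested. Intervals of counts cover counting error only: 3 counts correspond to 0.127 to 0.194 CPM. Alternatives were RLE and upper quartile scaling, no low-count filter, DESeq2 1.42.0, the replicate number as a block, all 12 libraries in 1 fit, a required change of 2-fold, and leaving out each library. The fits were tested on simulated data.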

Additional observations from a re-analysis of the deposited data

Results flagged for a closer look

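The effect of BBR differed between cells with and without OA for 5 of the 8 genes, by a product term on 12 libraries that passed the threshold. The term also passed for other genes named above, among them Slc2a1, Hk1, Pkm and Glyctk. The term is the log2 drug effect with OA minus that without OA. It was 1.61 for Slc2a2, 1.08 for Gcgr, 0.59 for Tkfc, 0.39 for Pklr and 0.38 for Mlxipl, so for each of these the level was lowered less by BBR when OA was present. For Gcgr the level with OA alone was already 19.7 CPM, near the 16.9 CPM of BBR alone. The term was -0.69 for Slc2a1, -1.01 for Hk1 and -0.27 for Pkm, which BBR alone raised. For Glyctk, which BBR alone lowered, it was 0.50. The 8 genes were selected on these libraries, so their terms are a description. The cause of the difference was not tested.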

How the results depend on the processing

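No called change of the 8 genes turned its sign in any alternative, and 18 of the 27 called results over the 5 comparisons kept their call in all of them. With a change of 2-fold required, list genes called were 7 for BBR against control (65 without the requirement), 1 for BBR+OA against OA (13), 9 for OA against control (66), 7 for BBR+OA against BBR (61) and 8 for the product term (36). The members called were 4, 0, 1, 2 and 2 in that order (8, 4, 5, 5 and 5 without it). The share of all genes past the 2-fold requirement was not worked out, so these counts are a description. With the replicate block, that is, the replicate number as a term, 29 list genes were called in BBR+OA against OA, where 10.9% of all genes were called (4.59% without the block), and 8 of the 8 genes in OA against control, where 53.4% were called (42.8% without it). The numbers share only a label: deviations of same-numbered libraries from their group means correlated at 0.0534 to 0.183 and those of other numbers at -0.149 to 0.0375, and in the 4 comparisons the 3 libraries of the first group each correlated best with their own number in the second, 12 of 12 cases with some libraries counted in more than 1, a hint from the data and not the design. DESeq2 called 3 of the 8 genes in BBR+OA against BBR, where it called 31% of all genes. Leaving out 1 library gave 2 to 13 list genes and 1 to 3 of the 8 genes in BBR+OA against OA. There 1.74% to 5.1% of all genes were called. In BBR+OA against BBR it gave 3 to 6 of the 8 genes, where 31.9% to 35% of all genes were called. The call of Gcgr in BBR+OA against OA appeared with no low-count filter, DESeq2 and the replicate block, while that of Slc2a2 was lost with DESeq2. The term of Tkfc was 0.45 without OA replicate 2. With 3 libraries per group, a difference of the size of the Khk changes lies near what the fits can call.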
